A study of Rattus norvegicus with 9 samples.

Results

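The injury response that remained in the cortex under dexmedetomidine (DEX) was described from 6 of the 9 libraries of the series, the 3 of the I/R + DEX group and the 3 of the Sham group, which were assigned to their groups by their labels. Of the 44059 transcripts in the deposited table, 36146 had a count in at least 1 of these 6 libraries and 25283 had enough counts to be tested. All animals were male Sprague-Dawley rats aged 7 to 8 weeks, and each library was made from the cortex of one rat. The study states that the cortex was taken at the site of the infarct. How the region was chosen in Sham rats, which had no occlusion, is not described. Sham rats had the vessels of the neck exposed, with no wire passed into them, and received saline. By the study's methods, I/R + DEX rats received 50 μg/kg of DEX into the peritoneum 30 min before a 2 h transient occlusion of the middle cerebral artery (tMCAO) and were sacrificed 24 h after tMCAO. Elsewhere the study also mentions DEX given after reperfusion, which its methods do not describe, so a later dose is not settled. The remaining 3 libraries came from I/R rats, which had the same occlusion with saline, and they are given here only beside the other groups. The study left out rats that died, bled into the subarachnoid space or showed no neurological deficit, so the I/R + DEX group held rats with a deficit that survived. No group had the sham operation together with DEX, so effects of the drug on uninjured cortex and effects of the injury cannot be told apart in this comparison.

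When blood flow is cut off and then restored, neurons in the supplied territory are damaged, glial cells become reactive, and leukocytes enter from the blood, and each of these steps changes which RNAs are found in the tissue. DEX is a sedative that stimulates α2-adrenergic receptors and lowers the release of noradrenaline. Long non-coding RNAs (lncRNAs) are transcripts without a long open reading frame, many of which are made in only a few cell types, and a large number are made in the brain. In whole cortex, a loss of cells of a type and a lower amount of RNA per cell cannot be told apart, and this holds for every value below.

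The table gives whole-number counts per transcript. It held 40808 annotated transcripts, mRNAs, known lncRNAs and other non-coding RNAs together, under rat Ensembl identifiers, and 3251 predicted lncRNAs assembled by the authors, whose identifiers begin with MSTRG and place them in 2408 loci. Library totals were 21691473 to 28600541 counts in Sham and 31234956 to 36039743 in I/R + DEX, so the treated libraries were the deeper ones. Gene symbols could not be given, since 0 of the 40808 annotated identifiers were found in the gene table used here. Marker genes of neurons, glia and leukocytes and the gene lists were therefore not analysed here, and the tissue label was not checked against markers. Levels are given as CPM, counts scaled to the size of the library with edgeR's TMM factors, and are compared between libraries for one transcript, not between transcripts, since they are not divided by length.

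The 3 I/R + DEX rats differed from each other far more than the 3 Sham rats did. Over 12662 transcripts with a mean of at least 10 CPM, the median absolute log2 difference between a pair of Sham libraries was 0.137 to 0.139. Between I/R + DEX libraries it was 0.234 for replicates 1 and 2, 0.358 for replicates 2 and 3, and 0.458 for replicates 1 and 3. Replicate 1 therefore lay farther from replicate 3 of its own group than from any Sham library, from which it differed by 0.392 to 0.418, and the key counts are given below with and without replicate 3. Measured from the mean of the Sham libraries, the median absolute difference was 0.393 in I/R + DEX replicate 1, 0.456 in replicate 2 and 0.647 in replicate 3. The I/R libraries lay at 0.577, 0.666 and 0.452 on the same scale, so the ranges of the groups with occlusion overlapped. The library nearest to I/R + DEX replicate 2 was I/R replicate 3, at 0.162, and the library nearest to I/R + DEX replicate 3 was I/R replicate 2, at 0.206. No pair of rats within a group agreed within sampling noise.

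**Figure D1:**
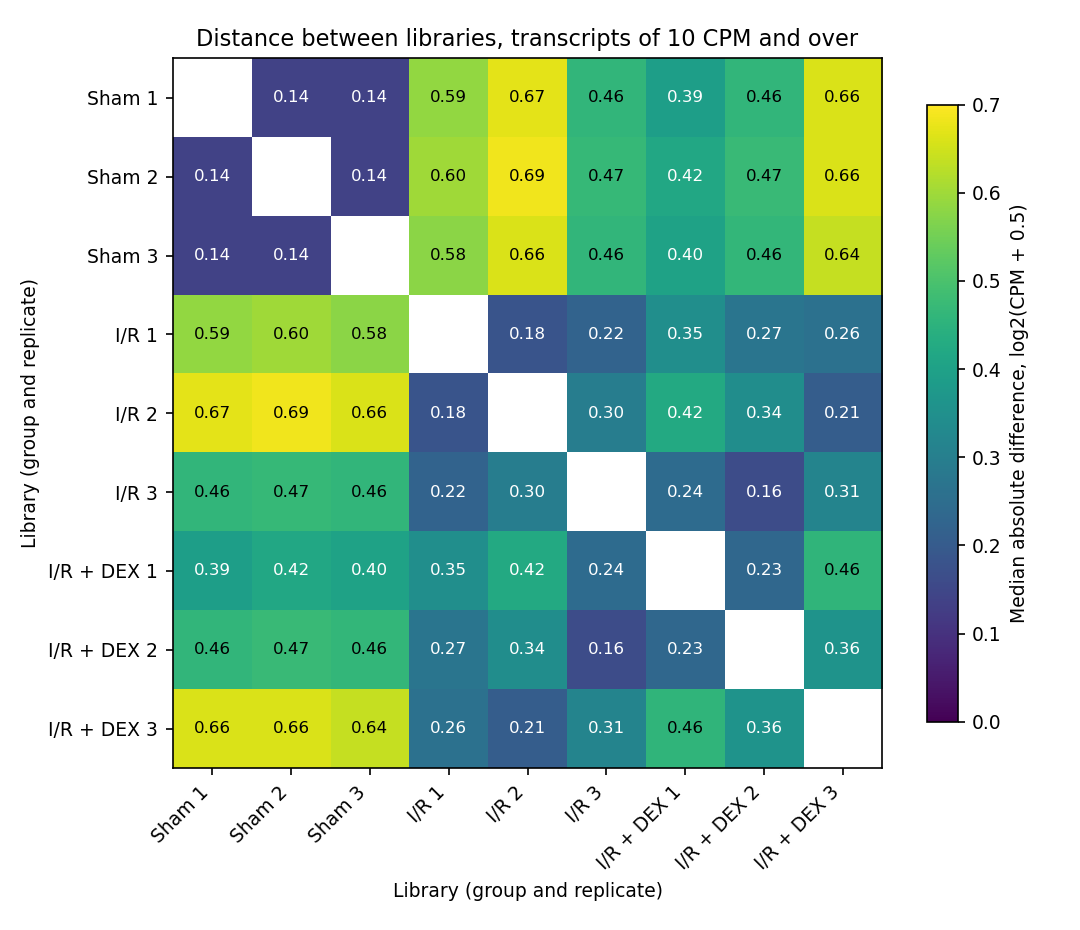
Median absolute log2 difference between each pair of the 9 libraries over 12662 transcripts with a mean of at least 10 CPM. Sham pairs lie at 0.137 to 0.139, pairs of I/R + DEX rats at 0.234 to 0.458, and pairs of an I/R + DEX and a Sham rat at 0.392 to 0.662.

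A broad response was present under DEX, in both directions, and it was larger among upregulated transcripts. By edgeR's quasi-likelihood test, 5166 transcripts differed from Sham at a Benjamini-Hochberg adjusted p under 0.05, which is 20.4% of those tested. Of these, 2948 were upregulated (11.7% of those tested) and 2218 were downregulated (8.77%). The median log2 fold change was 1.51 among the upregulated, a fold of 2.85, and −1.26 among the downregulated, a fold of 2.39. Large changes were mostly upward, since 549 transcripts rose and 100 fell by more than 3 on the log2 scale. Of the changes beyond 2, 1053 were upward and 407 downward, and beyond 1 these numbers were 2090 and 1484. Over all transcripts tested the median log2 fold change was 0.02 and the median absolute value was 0.56, with quartiles of 0.25 and 1.08.

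At the cutoff of the study's methods, which asks for an unadjusted p under 0.05 and for a log2 fold change beyond 0.8, 6629 transcripts differed (26.2%), 3612 upward (14.3%) and 3017 downward (11.9%). The upward share at this cutoff was 54.5%, but 48.6% when libraries were scaled by total counts alone, so which direction led depended on the scaling. Sham and I/R + DEX rats did not overlap for 47.6% of the transcripts tested, and this was so for all of the 5166 transcripts that passed the adjusted p. The number that passed the adjusted p changed with the libraries in the fit. It was 5816 without I/R + DEX replicate 3 and 5985 without replicate 1, but 2299 without replicate 2, and between 783 and 927 when any one Sham library was left out. At the study's cutoff the number stayed between 5762 and 7668 in the same 6 fits. Without one Sham library the median absolute log2 fold change over all transcripts tested was 0.575 to 0.589, against 0.559 with all 6 libraries. Each of these fits held fewer libraries, and the part of this in the lower number of calls was not tested.

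In the counts themselves, the upregulated transcripts took 7.07%, 6.86% and 7.03% of all counts in Sham replicates 1 to 3, and 14.99%, 15.3% and 17.1% in I/R + DEX replicates 1 to 3. The downregulated transcripts took 17.5%, 18.3% and 17.9% in Sham, and 9.31%, 7.31% and 5.35% in I/R + DEX. These shares describe the lists that the test chose and are not further evidence for them. Each treated rat lay above every Sham rat for the first list and below every Sham rat for the second.

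The size of the response differed from rat to rat in the same direction for both lists. The median log2 difference from the Sham mean over the 2948 upregulated transcripts was 1.08 in I/R + DEX replicate 1, 1.20 in replicate 2 and 1.497 in replicate 3. Over the 2218 downregulated transcripts it was −0.96, −1.15 and −1.30. For 3293 of the 5166 transcripts (63.7%) the rat farthest from Sham was replicate 3, and for 3033 (58.7%) the rat nearest to Sham was replicate 1. The remainder shows that the order was not a fixed one, because replicate 3 was the nearest to Sham for 884 transcripts (17.1%) and replicate 1 the farthest for 742 (14.4%). The I/R rats had no part in choosing these lists, but their differences are measured from the same Sham libraries, which did. In the I/R rats the medians were 1.44, 1.54 and 1.17 for the upregulated and −1.33, −1.43 and −1.06 for the downregulated transcripts.

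**Figure D2:**
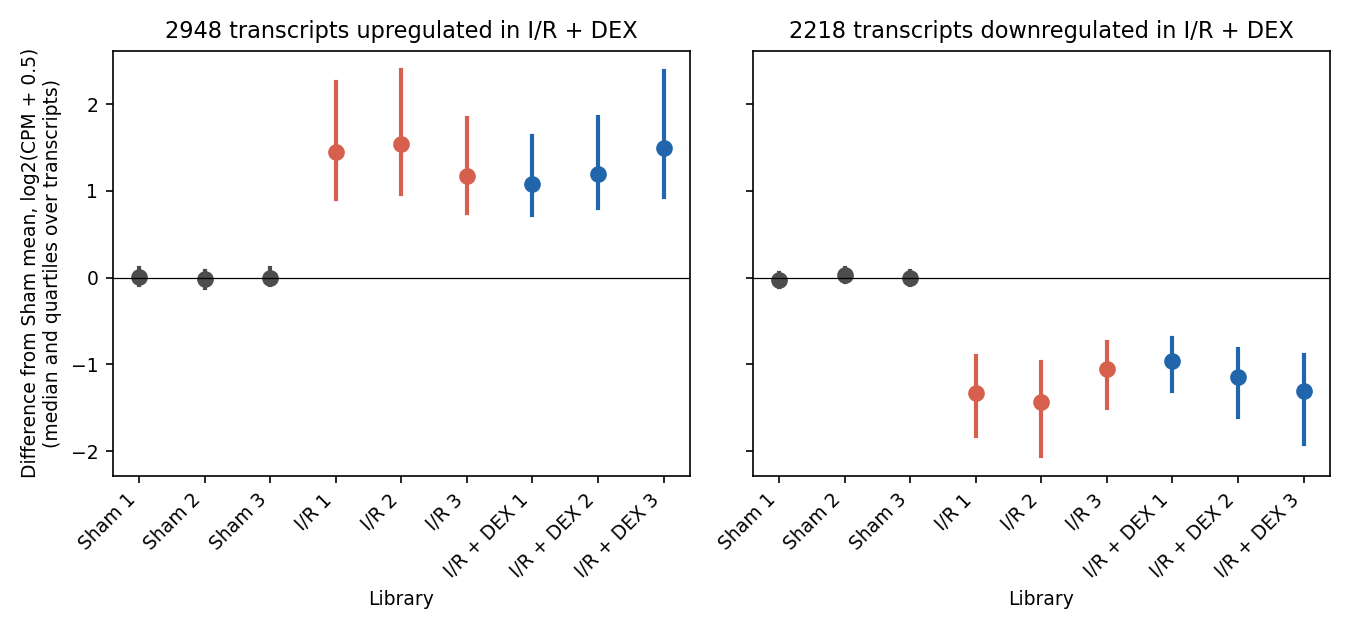
Log2 difference of each rat from the mean of the Sham libraries, for the transcripts upregulated and downregulated in I/R + DEX against Sham, with I/R rats beside. The medians of I/R + DEX replicates 1 to 3 are 1.08, 1.20 and 1.497 upward and −0.96, −1.15 and −1.30 downward.

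The share of transcripts called was higher at 10 CPM and over than below it, and the called changes were smaller. Transcripts were classed by their mean CPM over the 6 libraries. Of the 3482 tested transcripts under 1 CPM, 9.31% passed the adjusted p, 179 upward and 145 downward. From 1 to 10 CPM, 15.9% of 9139 passed, 929 upward and 528 downward. From 10 to 100 CPM, 26.2% of 10647 passed, 1582 upward and 1210 downward, and at 100 CPM or more 29.4% of 2015 passed, 258 upward and 335 downward. Upregulated transcripts thus outnumbered downregulated ones in every class except the most abundant. The median absolute log2 fold change of those called was 2.52 in the lowest class, then 1.86, 1.10 and 1.03, while the median standard error over all tested transcripts of a class was 0.55, 0.37, 0.20 and 0.19. Low transcripts thus needed a larger change to pass. At the study's cutoff, which has no adjustment, the share called was nearly level at 23.2%, 28.3%, 24.96% and 28.4%.

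At the adjusted p, the excess of downregulated transcripts in the most abundant class lay with the predicted lncRNAs. At 100 CPM or more, annotated transcripts were called 252 upward and 249 downward of 1814, and predicted lncRNAs 6 upward and 86 downward of 201. At the study's cutoff, annotated transcripts of this class also leaned downward, with 200 upward and 262 downward. Without I/R + DEX replicate 3, the shares called in the 4 classes were 7.04%, 15%, 30.8% and 42.6%. The share in the highest class did not exceed that from 10 to 100 CPM in every setting, since these shares were 12.1% and 12.2% without I/R + DEX replicate 2. Without one Sham library the highest class had 3.47% to 4.71% called, below the 4.27% to 5.22% of the class under it.

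**Figure D3:**
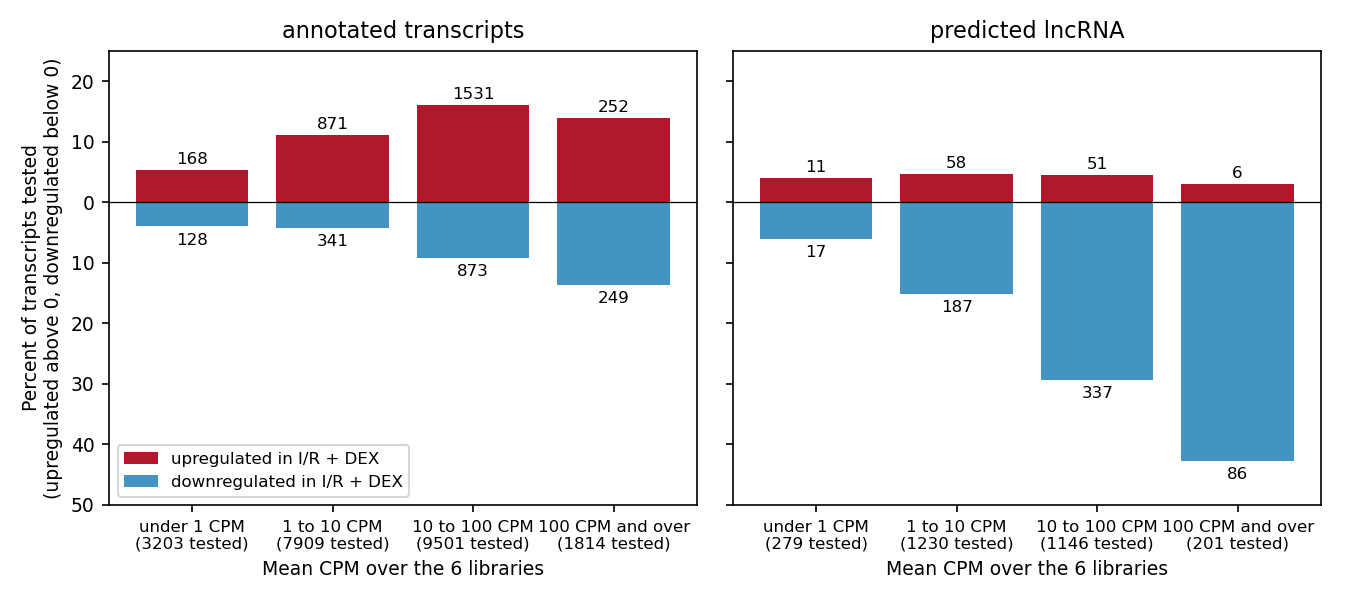
Transcripts called upregulated and downregulated in I/R + DEX against Sham by class of mean CPM, for annotated transcripts and predicted lncRNAs. Annotated transcripts at 100 CPM or more number 252 upward and 249 downward, and predicted lncRNAs in that class 6 upward and 86 downward.

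Annotated transcripts and predicted lncRNAs moved in opposite directions on balance. Among the 22427 annotated transcripts tested, 2822 rose (12.6%) and 1591 fell (7.09%). Among the 2856 predicted lncRNAs tested, 126 rose (4.41%) and 627 fell (22.0%), so 83.3% of the calls in this class were downward. The median log2 fold change over all tested transcripts was 0.07 for annotated transcripts and −0.60 for predicted lncRNAs. Scaling by total counts alone moved the median of all transcripts from 0.02 to −0.08 and that of annotated transcripts to −0.03, a change of sign, while that of predicted lncRNAs was −0.69. The predicted lncRNAs that passed had a median of 1.92 upward and −1.80 downward, the latter a fold of 3.48. The downward share of predicted lncRNA calls was 84.3% without I/R + DEX replicate 3 and 78.8% to 86.2% over all settings tried, and the upward share of annotated calls was 57.5% to 79.0%.

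The share of all counts that lay on predicted lncRNAs showed the same difference rat by rat. It was 11.6%, 12.7% and 12.3% in Sham replicates 1 to 3, and 7.53%, 6.89% and 4.91% in I/R + DEX replicates 1 to 3. The groups did not overlap, and their means were 12.2% ± 0.555 (SD, n = 3) and 6.44% ± 1.37 (SD, n = 3), with p = 0.1 in a 2-sided exact permutation test, the smallest p that 3 rats against 3 allow. The most abundant transcripts took a larger share of the counts in I/R + DEX. The 100 most abundant transcripts of each library took 18.1%, 17.7% and 18.1% of the counts in Sham, and 19.3%, 26.5% and 36.6% in I/R + DEX (exact permutation test, p = 0.1). This difference of 9.52 percentage points was 4.93 without I/R + DEX replicate 3. The share of the 1000 most abundant overlapped between groups, with 45.5% to 45.7% in Sham and 44.4% in I/R + DEX replicate 1 (means 45.6% and 50.03%, exact permutation test, p = 0.4). The single most abundant transcript of a library took 2.04% to 2.19% in Sham, and 2.60%, 5.63% and 10.98% in I/R + DEX replicates 1 to 3. The spread of this measure within I/R + DEX was wide, with replicate 1 close to Sham and replicate 3 far from it.

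Since reads of one locus may be divided among its transcripts in a way that the sources used here do not give, the predicted lncRNAs were also summed by locus. In that fit 22.1% of all features passed the adjusted p, 12.5% upward and 9.63% downward. Of 2267 loci tested, 757 passed (33.4%), 127 of them upregulated and 630 downregulated. Loci with a single predicted transcript gave 107 upward and 490 downward calls of 1898, and loci with several gave 20 and 140 of 369. In the fit by transcript, the 753 called predicted lncRNAs lay in 685 loci, and 0 of these held calls in both directions. Most of the 685 held a single call and could not show both directions, so this is little evidence of agreement within loci. The excess of downward calls was thus also present in loci with a single predicted transcript in the table. Whether reads of these loci were divided with other transcripts was not tested. The number of called loci fell to 365 without I/R + DEX replicate 2, and it was 917 without replicate 3. Without one Sham library it was 166 to 224.

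The spread between rats was larger under DEX than in Sham at every level of abundance. The median standard deviation (SD) of log2(CPM + 0.5) over the transcripts tested was 0.18 in Sham and 0.34 in I/R + DEX, with 0.25 in I/R. In I/R + DEX it was 0.33, 0.40, 0.29 and 0.32 from the lowest to the highest class of abundance, whereas in Sham it was 0.27, 0.26, 0.13 and 0.08. At 100 CPM or more, where counting error is small, 89.1% of the transcripts had a larger SD in I/R + DEX than in Sham, against 72.3% of all transcripts tested. The SD on this log2 scale was largest for abundant predicted lncRNAs. In the highest class their median was 0.90 in I/R + DEX, 0.12 in Sham and 0.51 in I/R. The 0.5 added to the CPM lowers the SD of low transcripts, so classes of abundance compare poorly on this scale. As a percent of mean CPM, the median SD of predicted lncRNAs under 1 CPM was 55.6% in I/R + DEX and 44.9% in Sham. At 100 CPM or more it was 54.0% and 8.16%. Among all transcripts tested, 66.5% had a larger SD in I/R + DEX than in I/R. With 3 rats a group, each single SD is imprecise, and transcripts of one rat are not independent of each other.

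**Figure D4:**
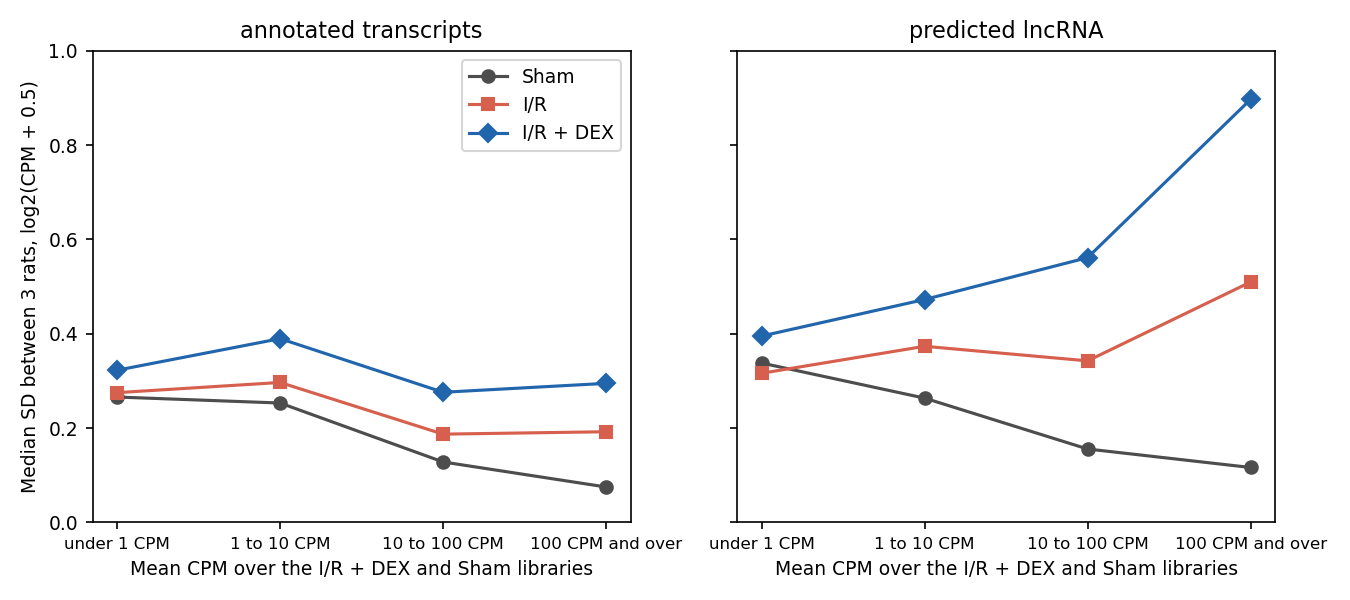
Median standard deviation of log2(CPM + 0.5) between the 3 rats of each group, by class of mean CPM. In the highest class it is 0.08 in Sham and 0.32 in I/R + DEX, with 0.21 in I/R.

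Many large differences were left without a call. Beyond a log2 fold change of 1, 3574 transcripts passed the adjusted p and 3507 did not. Those that did not pass were lower, with a median of 2.21 CPM against 11.9, and more variable, with a median SD in I/R + DEX of 0.66 against 0.416. Their median SD in Sham was also larger, 0.34 against 0.169. The parts of low counts and of spread between rats in the missing calls were not tested. Of those not called, 795 had at least 10 CPM, 345 with a higher and 450 with a lower mean in I/R + DEX. Their median SD was 0.983 in I/R + DEX and 0.217 in Sham, and replicate 3 was the rat farthest from Sham for 75% of them. At the other end, 1592 transcripts passed with a change within 1 on the log2 scale, at a median of 42 CPM.

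A smaller set of transcripts passed whichever rat was left out. In each of the 6 fits that left out 1 library, and also with DESeq2 and limma-voom on all 6 libraries, 644 of the 5166 passed with the same sign, 434 upward and 210 downward. Their median log2 fold change was 2.80 upward and −1.75 downward, and their rats lay close together, with a median SD of 0.274 in I/R + DEX and 0.14 in Sham. By class, they comprised 422 annotated transcripts that rose and 117 that fell, and 12 predicted lncRNAs that rose and 93 that fell. The set is a part of the calls above, so its balance of directions is no further evidence.

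Some transcripts were at a floor of few counts in every library of one group and above it in every library of the other. A library with at most 3 counts of a transcript, which is 0.0832 to 0.138 CPM, was taken as being at the floor. At the floor in every Sham library and above it in every I/R + DEX library were 446 of the 44059 transcripts in the table, 419 annotated and 27 predicted. Of the 446, 150 had enough counts to be tested, and 145 of these passed the adjusted p. The reverse pattern was seen for 130 transcripts, 119 annotated and 11 predicted. Of the 130, 27 could be tested and 25 passed. The first pattern was thus the more frequent. The I/R + DEX libraries were the deeper ones, so that 3 counts were a smaller part of their totals. The part of depth in this excess was not tested. Most were low, with a median of 0.497 CPM among the 446, and 134 of them reached a mean of 1 CPM in I/R + DEX. Computed against 3 counts in each Sham library, the median of the 446 was at least 4.31-fold higher, and the highest was at least 964-fold higher. In the I/R libraries, 330 of the 446 were above the floor in every rat, 11 were at the floor in every rat and 105 were mixed. Of the 130 with the reverse pattern, 7 were above the floor in every I/R rat, 49 were at the floor in every one and 74 were mixed.

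More transcripts exceeded the floor in some treated rats only than in all of them. With every Sham library at the floor, 1383 transcripts were above it in 1 I/R + DEX rat and 623 in 2. In the other direction, 798 transcripts were above the floor in 1 Sham rat and 262 in 2, with every I/R + DEX library at the floor. For the predicted lncRNAs, another transcript of the locus kept the locus above the floor in the low group for 7 of the 27 that appeared and 8 of the 11 with the reverse pattern. A change between transcripts of one locus and a division of reads by the counting cannot be told apart there.

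Among called transcripts with at least 10 counts in each of the 6 libraries, the annotated one with the largest rise was ENSRNOT00000001916. It had 0.540, 0.541 and 0.682 CPM in Sham replicates 1 to 3 (15, 12 and 20 counts) and 159.5, 304.5 and 405 CPM in I/R + DEX replicates 1 to 3 (5227, 10514 and 11768 counts). Every treated rat lay more than 100 CPM above every Sham rat, and the log2 fold change was 8.94 (SE 0.481, edgeR adjusted p = 0.00118), a fold of 490. In the I/R rats it was at 205, 408 and 205 CPM.

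By the same rule, the largest fall among annotated transcripts was that of ENSRNOT00000081303, with 9.93, 10.8 and 8.66 CPM in Sham and 1.65, 0.927 and 0.516 CPM in I/R + DEX. The groups lay far apart, and the log2 fold change was −3.23 (SE 0.448, edgeR adjusted p = 0.00955), although the call was lost without Sham replicate 2. The I/R rats had 1.39, 0.702 and 1.42 CPM.

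The annotated transcript with the largest gain in mean CPM, ENSRNOT00000051483, varied widely between treated rats. It had 377, 319.5 and 644 CPM in Sham and 884, 2137 and 6574 CPM in I/R + DEX, so replicate 3 was far above the others and replicate 1 not far above the highest Sham rat. Its log2 fold change of 2.85 (SE 0.770, edgeR adjusted p = 0.0476) passed narrowly, and without I/R + DEX replicate 3 the change was 1.77 and the call was lost, as it was without replicate 2 or any one Sham library. The I/R rats had 2408, 2969 and 1221 CPM. The largest loss of mean CPM was that of ENSRNOT00000058143, which had 1366, 1420 and 1537 CPM in Sham and 739, 442 and 483 CPM in I/R + DEX. The groups lay apart, although I/R + DEX replicate 1 was well above the other treated rats, with a log2 fold change of −1.37 (SE 0.239, edgeR adjusted p = 0.0156) and 646, 487 and 495 CPM in I/R. This call was lost when any one Sham library or I/R + DEX replicate 2 was left out.

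Among the predicted lncRNA loci, MSTRG.15013 rose the most in the fit by locus, by the same rule on counts. Its levels were 0.936, 0.451 and 0.921 CPM in Sham and 19.6, 22.9 and 3.55 CPM in I/R + DEX, with a log2 fold change of 4.30 (SE 0.766, edgeR adjusted p = 0.0145). Here replicate 3 was the rat nearest to Sham, and the call was lost when any one Sham library was left out. The I/R rats had 1.85, 2.504 and 6.82 CPM, and the log2 difference of I/R + DEX from I/R was 2.06 (SE 0.802, edgeR adjusted p = 0.979). MSTRG.10996 fell the most, from 42.5, 44.1 and 56.1 CPM in Sham to 4.37, 1.25 and 1.69 CPM in I/R + DEX (log2 fold change −4.29, SE 0.508, edgeR adjusted p = 0.00602). The highest treated rat was far below the lowest Sham rat, and the I/R rats had 1.07, 1.01 and 1.69 CPM.

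The loci with the largest gain and the largest loss in mean CPM differed in how many predicted transcripts they held. MSTRG.2024, which held 12 predicted transcripts, had 321.5, 343 and 382 CPM in Sham and 783, 1508 and 2285 CPM in I/R + DEX, a log2 fold change of 2.13 (SE 0.389, edgeR adjusted p = 0.0156). In I/R it stood at 2314, 2761 and 1925 CPM, and the call against Sham was lost when any one Sham library was left out. MSTRG.5610, with a single predicted transcript, had 1016, 1149 and 1433 CPM in Sham and 212, 168 and 85.8 CPM in I/R + DEX, a log2 fold change of −2.95 (SE 0.369, edgeR adjusted p = 0.00659). Its I/R levels were 191, 134 and 182 CPM. In both loci I/R + DEX replicate 3 was the rat farthest from Sham and replicate 1 the nearest.

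**Figure D5:**
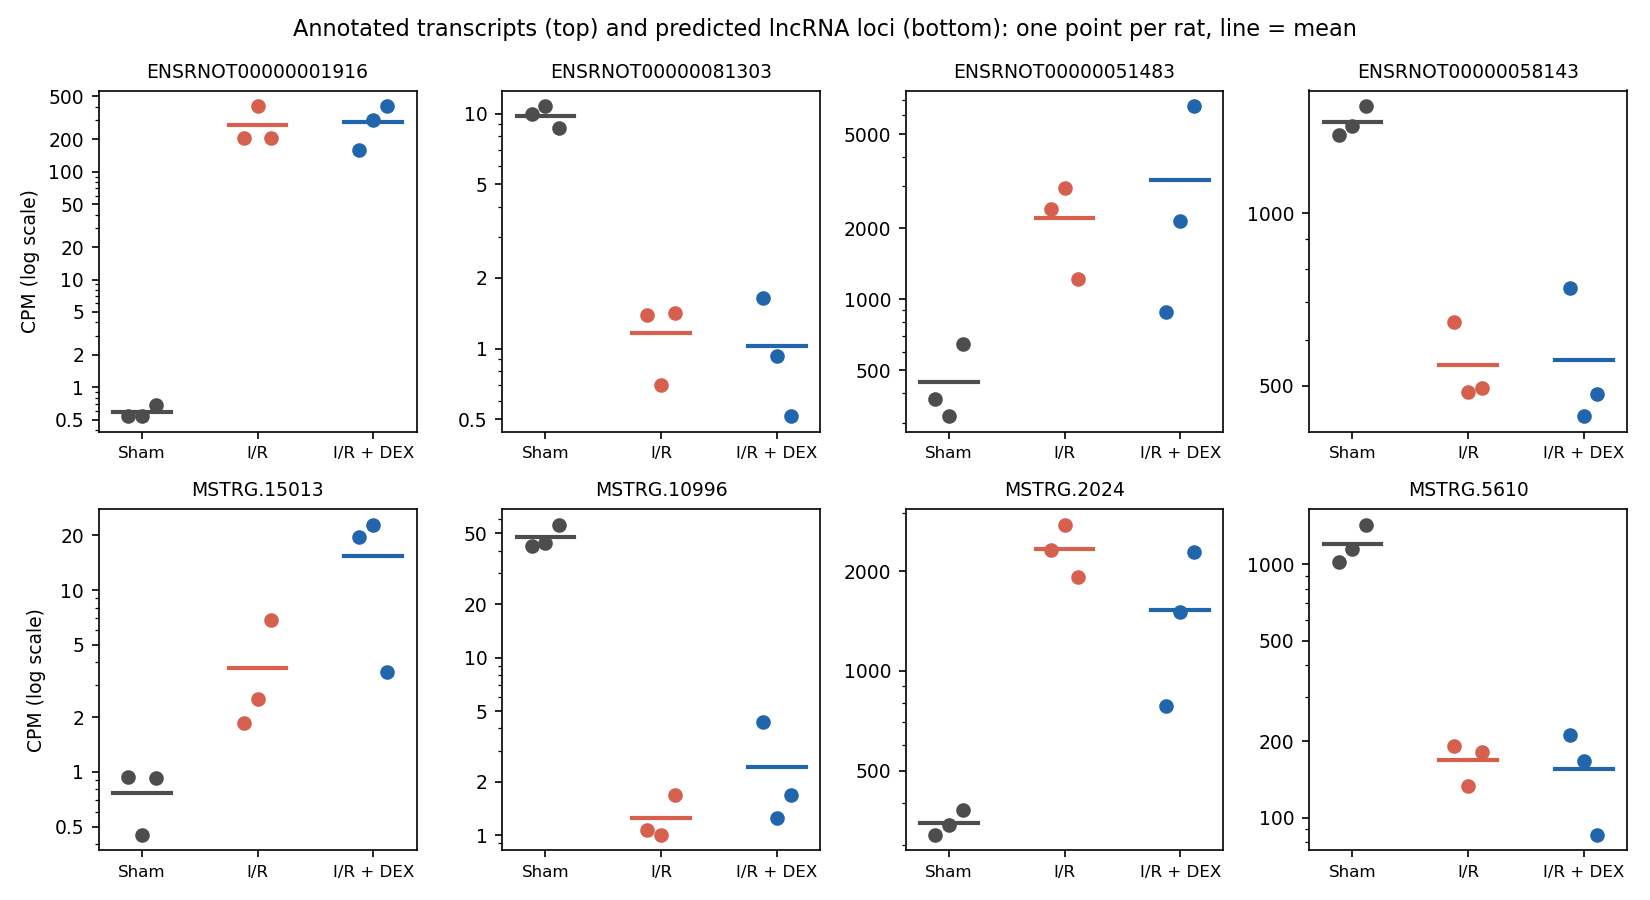
CPM on a log scale in each rat, grouped by treatment with the group mean as a line, for 4 annotated transcripts and 4 predicted lncRNA loci. In all 8 the I/R + DEX and Sham rats do not overlap, and the widest spread among I/R + DEX rats on the annotated side is that of ENSRNOT00000051483, from 884 to 6574 CPM.

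The study amplified a pair of predicted lncRNAs by PCR, and its primers are shown since they mark the only stretches of these transcripts for which a sequence was at hand. They are given 5′ to 3′ in lower case.
MSTRG.288.3 forward: cccacaggccaagggaattt
MSTRG.288.3 reverse: cccgtgaaccctcaacacat
MSTRG.16732.1 forward: caacaatgcccaccaaccag
MSTRG.16732.1 reverse: ccattactgccctccccaag
MSTRG.288.3 had 0 counts in each of the 6 Sham and I/R + DEX libraries, at a floor of 0.0832 to 0.138 CPM. In I/R replicates 1 to 3 it was counted 9067, 3291 and 2213 times. MSTRG.16732.1 was counted 1821, 826 and 485 times in Sham replicates 1 to 3, and 121, 807 and 0 times in I/R + DEX replicates 1 to 3. The groups overlapped, and the log2 fold change of −2.13 (SE 1.53) did not pass (edgeR adjusted p = 0.354). MSTRG.16732.1 had 0 counts in every I/R library.

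Summed by locus, MSTRG.288 had a log2 fold change of 0.26 (SE 0.147, edgeR adjusted p = 0.249). The locus MSTRG.16732 had −1.91 (SE 0.629, edgeR adjusted p = 0.074), with every I/R + DEX rat below every Sham rat, and it passed without I/R + DEX replicate 3 at a log2 fold change of −1.43. Of the predicted lncRNAs that the study placed in its networks, MSTRG.288.2 and MSTRG.2024.4 had 0 counts in all 6 libraries. In I/R replicates 1 to 3, MSTRG.288.2 had 0, 763 and 1810 counts, and MSTRG.2024.4 had 0, 11399 and 0. MSTRG.17966.6 had 11 counts in I/R + DEX replicate 2 and 0 in the other 5 libraries, beside 7852, 0 and 1843 in I/R replicates 1 to 3. So 4 of the 5 transcripts that the study singled out were at the floor in all Sham libraries, and at locus level MSTRG.17966 had a log2 fold change of −0.26 (edgeR adjusted p = 0.301). For I/R against Sham, the log2 fold changes of the loci MSTRG.288, MSTRG.16732 and MSTRG.17966 were 0.87, −2.90 and 0.19 (edgeR adjusted p = 0.00278, 0.00381 and 0.202).

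The study also listed lncRNAs, mostly predicted ones, whose change after I/R it described as reversed by DEX. These lists were chosen on the same libraries, so their direction here is not independent evidence. Of 53 listed as higher in I/R and lower again under DEX, 43 were predicted and 10 annotated. Among them 19, all predicted, could be tested against Sham, of which 5 rose and 0 fell at the adjusted p, with a median log2 fold change of 1.20. Another 29 of the 53 did not exceed the floor in any of the 6 libraries. A listed transcript at the floor in Sham could be tested only through its counts in I/R + DEX, which favours a rise among those tested. Of 55 listed the other way, 51 predicted and 4 annotated, 39 could be tested, 37 of them predicted, of which 0 rose and 4 fell, with a median of −0.77. Among all predicted lncRNAs tested in the same fit, 4.41% rose and 22.0% fell, and among all transcripts 11.7% rose and 8.77% fell.

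Set beside the I/R group, the differences of I/R + DEX from Sham came with a wider spread between rats. Over the 24486 transcripts tested in all 3 pairs of groups, the median absolute log2 fold change was 0.54 for I/R + DEX against Sham. It was 0.64 for I/R against Sham, and 0.22 between I/R + DEX and I/R. These comparisons share libraries, so the values are given side by side without a test. Of these transcripts, 4996 passed the adjusted p for I/R + DEX against Sham and 10509 for I/R against Sham, where 42.8% of all transcripts tested passed. The biological coefficient of variation of the fits was 0.412 and 0.363. A larger number of calls against Sham in one group does not show that its response was larger. The direct comparison of both groups tests transcripts one by one, and a difference in the size of the whole response was not tested.

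In that direct comparison 0 of 25860 transcripts passed the adjusted p of edgeR's quasi-likelihood test, the lowest adjusted p being 0.359, while 997 (3.86%) had an unadjusted p under 0.05 and 610 (2.36%) passed the study's cutoff. For the transcripts upregulated in I/R + DEX against Sham, the median log2 fold change was 1.51 in that comparison, 1.57 for I/R against Sham and −0.09 when both occluded groups were compared. For the downregulated ones, these medians were −1.26, −1.39 and 0.15. In the direct comparison, an unadjusted p under 0.05 was reached by 146 of the 2948 upregulated (4.95%) and 107 of the 2101 downregulated transcripts that could be tested (5.09%). A p that misses the threshold with 3 rats a group does not show that these transcripts had the same level in both groups.

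Conversely, the transcripts that were called in I/R against Sham held intermediate values in some treated rats. Over the 5773 upregulated after I/R (22.4% of those tested), the median log2 difference from the Sham mean was 0.66, 0.80 and 1.12 in I/R + DEX replicates 1 to 3 and 1.13, 1.23 and 0.88 in the I/R rats. Over the 5252 downregulated after I/R (20.4%) it was −0.58, −0.78 and −1.09 in I/R + DEX and −1.06, −1.18 and −0.85 in I/R. These lists were chosen on the I/R rats, which favours large values in them. I/R + DEX replicate 3 lay within the range of the I/R rats in both lists, and replicates 1 and 2 lay nearer to Sham than any I/R rat.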

How the data were processed

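Cortical RNA from 9 rats was sequenced by the authors, who deposited whole-number counts, not normalized, for each transcript in each library. The submitters' processing notes name STAR 2.5.3a, StringTie 1.3.1 and the rat build rn6, whereas the Methods of the study name Trimmomatic, a mouse build and CLC Genomics Workbench. How reads shared between transcripts were divided is not given in the sources used here. Groups and replicate numbers were taken from the labels, and the letters of the library names were read as Sham, I/R and I/R + DEX.

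Counts were analysed in R 4.3.3 with edgeR 4.0.16. Transcripts were kept by filterByExpr (a count of 10 in enough libraries, a total of at least 15), scaled by TMM, and fitted with the quasi-likelihood model to the 6 libraries of a comparison without other terms. P-values were adjusted by the Benjamini-Hochberg method over all transcripts tested. They set the difference between groups against the spread between rats, which the model takes as equal in both groups. Standard errors were obtained from the log2 fold change and the F statistic. Predicted lncRNAs were assigned to loci by their identifier without its last part. Values per library were compared with 2-sided exact permutation tests. Floors (3 counts) cover counting error only, whereas the standard errors include the spread between rats. Counts of near-identical copies, overlapping genes and transcripts that share a locus are uncertain. The count test was tested on simulated counts with known changes. These had the same spread in both groups, unlike the data, so the unequal spread seen here was not covered.

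Alternatives were other scaling, other filters, DESeq2 1.42.0, limma-voom (limma 3.58.1), all 9 libraries in one fit, a replicate block, stricter thresholds and leaving out each library. Which comparison to describe, the lists and the rules were chosen with earlier results of these data known, whereas libraries were placed in groups by their labels. The named annotated transcripts and loci are taken in each direction from called ones without overlap between groups: the one with the largest log2 fold change among those with at least 10 counts in each of the 6 libraries, and the one with the largest difference in mean CPM. Those that the study measured by PCR or placed in its networks were added. The circRNA and gene names were not analysed here.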

Additional observations from a re-analysis of the deposited data

How the results depend on the processing

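The adjusted p was the measure most exposed to the choice of tool and rats. Against 5166 transcripts with edgeR's quasi-likelihood test, DESeq2 called 8182 and limma-voom 8290, an adjusted p under 0.01 left 816, and leaving out one library gave 783 to 5985, where fewer rats remained in the fit. No called transcript had the opposite sign where it was called again. The number at the study's cutoff stayed within 1.5 times under every alternative run. The upregulated share of the calls, 57.1%, was 54.7% with total counts, 60.7% without a filter, 54% with at least 10 counts in every library, 54.7% with DESeq2, 52% with limma-voom, 59.1% with all 9 libraries in one fit, and 54.2% to 68.7% with one library left out. The median absolute log2 fold change was 0.708 without a filter. Called loci numbered 166 to 917 with one library left out. Same-numbered Sham and I/R + DEX rats deviated together only weakly (correlations 0.051, 0.047 and 0.073), so the numbers were not taken to pair the rats, although each library correlated best with its own number. With a replicate block, 1818 transcripts passed (62.9% upregulated) and 452 loci. The depth of the libraries went with the groups, and counts thinned to the smallest library gave 5060 calls. Removal of the 10 most abundant transcripts, chosen after seeing the data, left 2807 annotated transcripts upward and 1586 downward. Of the named and class values under the alternatives, 165 stayed as reported, 27 moved, 20 lost the call and 1 gained it.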
